A study of Mus musculus with 24 samples.

Results

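The GABA-A receptor subunits described here are the products of 7 mouse genes: the alpha subunits Gabra2, Gabra3, Gabra4 and Gabra5, the beta subunits Gabrb1 and Gabrb2, and the delta subunit Gabrd. They were measured in the right cerebral hemispheres of 24 female NMR-1 mice. All probe sets that the platform annotation assigns to one of these genes and to no other gene were taken, whatever their values. This gave 21 of the 45101 probe sets on the array, for 7 of 18162 genes: 5 for Gabra2, 2 for Gabra3, 2 for Gabra4, 1 for Gabra5, 4 for Gabrb1, 5 for Gabrb2 and 2 for Gabrd. Raised on pellets, they received 1 of 4 diets for 2 weeks from the age of 8 weeks. These were McDonald's fast food (6 mice), cooked food from an institute cafeteria (6 mice), a chimpanzee diet of vegetables, fruit and yogurt (6 mice) and the mouse pellets (6 mice). The first and second are the human diets. The labels name no engineered allele and no drug in any group. Each diet had 3 arrays in each of 2 labelled processing batches, with 1 Affymetrix whole-genome mouse array for each brain. Expression levels are on the log2 scale, so that a difference of 1 is a 2-fold difference.

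GABA-A receptors are chloride channels built from 5 subunits around a central pore, and they carry most fast synaptic inhibition in the brain. GABA binds between alpha and beta subunits. The alpha subunit sets much of a receptor's affinity, location and response to benzodiazepines. Gabra2 is found at synapses of cortical and hippocampal principal neurons, Gabra3 in deep cortical layers and the reticular thalamus, and Gabra5 mainly in the hippocampus and deep cortex. Gabra4 is common in thalamus, dentate gyrus and striatum, where it joins Gabrd in receptors outside the synapse that respond to low ambient GABA. Gabrb2 is the most widespread beta subunit, and Gabrb1 is found more in hippocampus and in some glia.

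Gabra2, Gabra4 and Gabrb1 lie in 1 cluster on chromosome 5 (with Gabra4 and Gabrb1 on opposite strands and overlapping at their starts), Gabrb2 on chromosome 11, Gabra5 on chromosome 7, Gabrd on chromosome 4 and Gabra3 on chromosome X. Promoter windows of 250 bases upstream of a gene start (RefSeq, build GRCm38.p6) were at hand for 6 of the 7 genes, 10 windows in all. The 4 below are shown because these genes moved to different extents between batches, as given further on, and differ in base composition; they run 5′ to 3′ on the gene's strand, with motif matches in capitals.

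Gabra2: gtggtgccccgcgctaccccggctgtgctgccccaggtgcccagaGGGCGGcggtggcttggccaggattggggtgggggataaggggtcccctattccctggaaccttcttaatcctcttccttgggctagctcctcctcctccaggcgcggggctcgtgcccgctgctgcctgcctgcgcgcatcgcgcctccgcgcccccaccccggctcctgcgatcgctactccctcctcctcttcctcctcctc
Gabra3: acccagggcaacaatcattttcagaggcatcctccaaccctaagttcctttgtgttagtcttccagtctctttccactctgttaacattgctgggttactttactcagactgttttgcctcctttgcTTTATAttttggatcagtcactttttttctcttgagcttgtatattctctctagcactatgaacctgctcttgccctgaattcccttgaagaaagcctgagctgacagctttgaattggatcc
Gabrb1 inner start: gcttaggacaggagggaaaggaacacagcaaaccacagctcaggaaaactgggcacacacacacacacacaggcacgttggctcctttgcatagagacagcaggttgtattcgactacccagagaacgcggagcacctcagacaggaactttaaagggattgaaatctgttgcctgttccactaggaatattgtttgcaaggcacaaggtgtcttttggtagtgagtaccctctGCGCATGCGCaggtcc
Gabrb2: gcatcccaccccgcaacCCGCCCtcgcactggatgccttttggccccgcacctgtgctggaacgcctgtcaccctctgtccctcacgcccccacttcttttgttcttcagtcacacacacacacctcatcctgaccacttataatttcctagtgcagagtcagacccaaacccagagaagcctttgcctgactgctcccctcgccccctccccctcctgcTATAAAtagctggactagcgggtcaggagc

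The Gabra2 window (chr5:71095850-71096099, minus strand) was 70% G and C with 18 CpG, against medians of 52.4% and 6 over 32851 windows. Its capitals mark a GC box, GGGCGG, which is 199 bases before the start and which 32.7% of all windows hold on either strand. The Gabra3 window (chrX:72656920-72657169, minus strand) had 42.4% G and C and 0 CpG. Its capitals mark TATAAA read on the other strand, 117 bases before the start, a match that 12.4% of windows hold. The window of the inner Gabrb1 start (chr5:71699682-71699931, plus strand) had 50.8% G and C and 6 CpG. Its capitals mark a match to the NRF1 motif, 6 bases before the start; 3.74% of windows hold this motif. The Gabrb2 window (chr11:42420190-42420439, plus strand) had 58.8% G and C and 8 CpG. Its capitals mark a GC box on the other strand, 227 bases before the start, and TATAAA, 24 bases before it. A search on both strands for a cAMP response element (TGACGTCA, 1.55% of windows), an E-box (CACGTG, 6.02%) and an Egr motif (GCGTGGGCG, 0.536%) found no match in the 10 windows. A match describes the letters only.

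The arrays differed in the spread of their values in ways that cross diet and batch. The SD of an array's log2 levels was 2.01 to 2.06 on the 9 non-pellet arrays labelled batch 2 and 1.81 to 2.02 on the 9 labelled batch 1, but 1.58 to 1.84 on the 3 pellet arrays labelled batch 2 and 1.95 to 2.04 on the 3 labelled batch 1. The level of 18S ribosomal RNA ran the other way: 4.88 to 5.15 on non-pellet batch 2 arrays and 5.87 to 6.58 on non-pellet batch 1 arrays, against 5.92 to 6.42 on pellet batch 2 arrays and 4.96 to 5.51 on pellet batch 1 arrays. On both measures the pellet arrays ran opposite to the other diets between the batch labels. The mean 3′ minus 5′ difference of Actb and Gapdh was 0.17 to 0.39 over all arrays, with overlapping groups. One array, pellet batch 2 replicate 1, stood apart: it had the lowest SD, 1.58, and its highest correlation with any other array was 0.944. The study's methods exclude 1 pellet brain for RNA degradation without naming it in the sources used here, so all 24 arrays are kept, and results that rest on this array are also given without it.

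All 7 genes had at least 1 probe set well inside the measured range. A mean level of 4.07, the median over the array, was required for testing, and 17 of the 21 probe sets passed it, among 21996 probe sets in all. Those below it were Gabra2 1420299_at and 1449807_x_at (mean 2.97 each), Gabrb1 1443834_at (3.18) and Gabrd 1457763_at (3.39). Where only 1 probe set of a gene is given, it is the one whose mean level was highest.

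Gabrb2 1428203_at had levels with lowest, median and highest values of 9.04, 9.69 and 10.03 on fast food, 8.78, 9.43 and 9.95 on cafeteria food, 8.91, 9.58 and 9.94 on the chimpanzee diet, and 8.07, 9.24 and 9.64 on pellets. The synaptic alpha subunit Gabra2 (1455444_at) had 6.99, 7.57 and 7.96 on fast food, 6.97, 7.26 and 7.89 on cafeteria food, 6.78, 7.33 and 7.66 on the chimpanzee diet, and 5.80, 7.07 and 7.52 on pellets. In both genes the 4 diets overlapped, and the lowest of the 24 levels belonged to pellet batch 2 replicate 1.

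Gabra4 1433707_at had 8.27, 8.71 and 9.06 on fast food, 8.03, 8.52 and 8.94 on cafeteria food, 8.11, 8.60 and 8.94 on the chimpanzee diet, and 6.89, 8.17 and 8.78 on pellets. Gabrd, its partner outside the synapse, had 7.03, 7.19 and 7.46 on fast food, 7.12, 7.26 and 7.49 on cafeteria food, 6.81, 7.31 and 7.73 on the chimpanzee diet, and 6.07, 7.35 and 7.57 on pellets. Medians of Gabra4 were higher on all 3 foods than on pellets, and those of Gabrd lower on all 3, although the means of Gabrd, 7.21 on fast food, 7.26 on cafeteria food and 7.29 on the chimpanzee diet, were above the 7.17 on pellets.

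Gabra3 1436957_at had 7.26, 7.53 and 7.77 on fast food, 7.04, 7.47 and 7.77 on cafeteria food, 7.16, 7.28 and 7.72 on the chimpanzee diet, and 5.58, 7.22 and 7.53 on pellets. Gabra5 1433602_at had 6.46, 6.64 and 6.86 on fast food, 5.997, 6.51 and 6.95 on cafeteria food, 6.21, 6.49 and 6.92 on the chimpanzee diet, and 5.26, 6.33 and 6.50 on pellets. Gabrb1 1419719_at had 8.24, 8.39 and 8.75 on fast food, 8.21, 8.47 and 8.98 on cafeteria food, 8.22, 8.50 and 8.77 on the chimpanzee diet, and 7.29, 8.41 and 8.78 on pellets. Every pair of diets overlapped in these 3 genes as well.

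**Figure D1:**
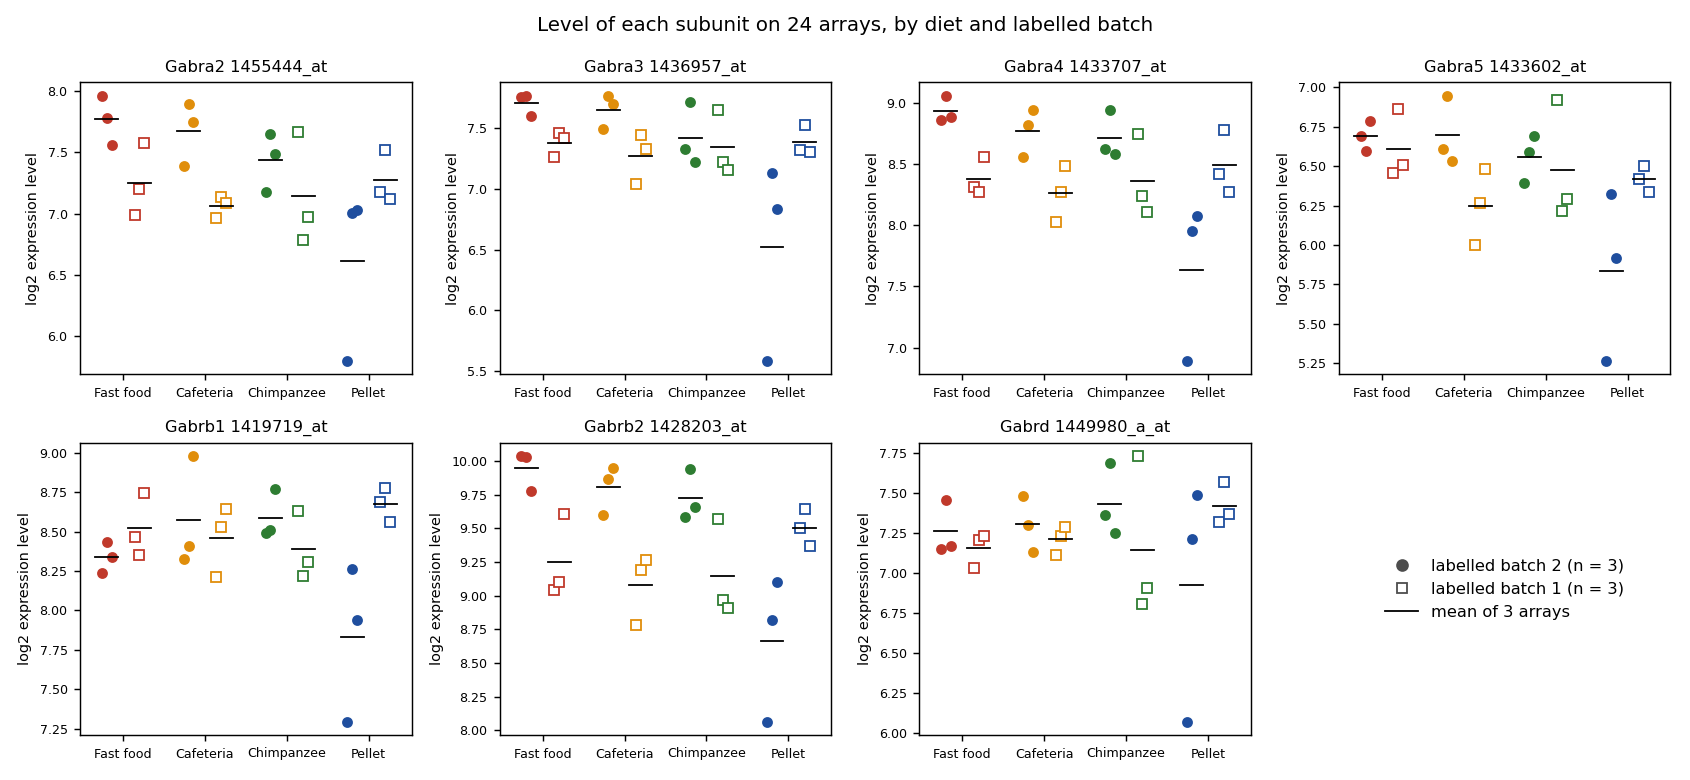
Log2 expression level (vertical axis) of the probe set with the highest mean for each of the 7 subunit genes, by diet (horizontal axis). Filled circles are arrays labelled batch 2, open squares arrays labelled batch 1, and a line is the mean of 3 arrays. Filled circles of Gabrb2 lie above the squares on fast food and cafeteria food and below them on pellets, where pellet batch 2 replicate 1 is lowest at 8.07.

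The first question was whether the subunits differ between mice on human and on chimpanzee food. No subunit probe set passed an adjusted p of 0.05. With limma and batch as a term, the F test over the 4 diets called 0 of 17 (0.0455% of all probe sets were called), and 0 of 17 had an unadjusted p below 0.05. The smallest adjusted p was 0.719. The two-way test of the study's methods also called 0, with 4 of the 17 left after the removal of probe sets with a diet and batch interaction. In bulk tissue fewer cells of a type and less RNA per cell cannot be told apart. The labels do not tie mice to litters, which the methods say were spread over the diets, and p-values measure the spread between these mice only.

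Human diets minus chimpanzee diet gave 0 of 17 called (0% of all probe sets) and 0 with an unadjusted p below 0.05, against 418 of 21996 overall. The median difference of the 17 was 0.08, and 13 of 17 were positive, against a median of 0.01 and 55.5% positive over all probe sets. The difference farthest from 0 was that of Gabra3 1421263_at, with a mean of 5.14 on the human diets and 4.93 on the chimpanzee diet, a difference of 0.22 ± 0.17 (SE, adjusted p = 1). Taken by batch, it was 0.43 in batch 2 and -0.0030 in batch 1. Gabra2 1455444_at differed by 0.15 ± 0.20, Gabrb2 1428203_at by 0.08 ± 0.21, Gabra5 by 0.05 ± 0.16 and Gabrd by -0.06 ± 0.17 (SE). None of these differences passed the test.

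The thalamus markers were higher on the human diets in 9 of 9 genes, with a median difference of 0.41. The cerebellum markers were higher in 6 of 6, with a median of 0.45. So were oligodendrocyte markers (7 of 7, median 0.23), choroid plexus and ependyma markers (6 of 6, 0.13) and other GABA-A subunits (3 of 3, 0.33). Genes of GABA synthesis, packaging, uptake and breakdown were higher in 7 of 7 (0.14), and cortex markers in 1 of 9 (-0.11). None of these passed the test, and their part in the subunit values was not tested.

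Fast food minus the cafeteria and chimpanzee diets called 0 of 17 (0% overall), with a median of 0.12 and 14 of 17 positive, against 0.04 and 66.4% over all probe sets. Fast food minus cafeteria food called 0 of 17 (0% overall), with a median of 0.08 and 13 of 17 positive (all probe sets, 0.05 and 68.7%). Fast food minus the chimpanzee diet called 0 of 17 (0% overall), with a median of 0.13 and 13 of 17 positive (all probe sets, 0.03 and 61.7%). Cafeteria food minus the chimpanzee diet called 0 of 17 (0% overall), with a median of 0.04 and 12 of 17 positive (all probe sets, -0.01 and 45.9%). No member had an unadjusted p below 0.05 in any of these 4 comparisons. The methods' test called 0 in each at a p of 0.01. Its removal of probe sets with a diet and batch interaction left 17 for the first comparison but only 4 for each of the rest.

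The foods were set against pellets next. Averaged over the batches, subunit levels were mostly higher on food, but no probe set passed the test. Fast food minus pellets called 0 of 17 (0.0409% of all probe sets), with a median of 0.42 and 16 of 17 positive, against 0.17 and 72.3% overall. Unadjusted p fell below 0.05 in 6 of 17, against 4734 of 21996 overall. They were Gabra5 (6.65 on fast food and 6.13 on pellets, a difference of 0.52 ± 0.18), Gabra3 1436957_at (0.59 ± 0.23), Gabra4 1433707_at (0.59 ± 0.24), Gabra2 1455444_at (0.57 ± 0.24), Gabrb1 1435095_at (0.59 ± 0.25) and Gabrb2 1428203_at (0.52 ± 0.25, SE), with adjusted p of 0.22 to 0.23.

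Cafeteria food minus pellets called 0 of 17 (0% overall), with a median of 0.36 and 16 of 17 positive (all probe sets, 0.12 and 69.9%), and 1 unadjusted p below 0.05, that of Gabra3 1436957_at (0.51, adjusted p = 0.61). The chimpanzee diet minus pellets called 0 of 17 (0.00455% overall), with a median of 0.29 and 16 of 17 positive (all probe sets, 0.14 and 71%), and 1 unadjusted p below 0.05, that of Gabra5 (0.39, adjusted p = 0.46). The exception to the direction was the same in all 3: Gabrb2 1450319_at was lower on fast food by 0.22, on cafeteria food by 0.14 and on the chimpanzee diet by 0.34. Its sign rested on 1 array within labelled batch 2. There the differences were -0.14, -0.11 and -0.31 for fast food, cafeteria food and the chimpanzee diet. Without pellet batch 2 replicate 1 they were 0.27, 0.31 and 0.11. Within labelled batch 1, which does not hold that array, they were also negative, at -0.29, -0.16 and -0.37, and none was called. The 3 comparisons share their 6 pellet arrays.

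As labelled, these averages combine batches that point in opposite directions. Within labelled batch 2, fast food minus pellets called 13 of 17, all higher on fast food (59% of all probe sets were called), with a median of 1.13. Gabra2 1443865_at differed by 1.49 ± 0.28 (adjusted p = 0.0027), Gabrb1 1435095_at by 1.32 ± 0.29 (0.0041), Gabra4 1433707_at by 1.30 ± 0.26 (0.0031) and Gabrb2 1428203_at by 1.28 ± 0.23 (0.0024). Cafeteria food minus pellets called 14 of 17, all higher (50.2% of all probe sets; median 1.04), and the chimpanzee diet minus pellets called 14 of 17, all higher (52.1% of all; median 0.87). The medians over all probe sets were 0.46, 0.40 and 0.44 for fast food, cafeteria food and the chimpanzee diet. Gabrd, Gabrb1 1443205_at and Gabrb2 1450319_at were called in none of the 3, with Gabrd at 0.34 ± 0.29, 0.38 ± 0.29 and 0.51 ± 0.29 in the same order.

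Without pellet batch 2 replicate 1, a choice made after the data were seen, the counts within labelled batch 2 were 13 for fast food (51.3% overall), 12 for cafeteria food (40.9%) and 10 for the chimpanzee diet (40.9%), with medians of 0.75, 0.68 and 0.49. All 3 medians were smaller without that array and still above 0. Gabrd was then at -0.09, -0.05 and 0.08 for fast food, cafeteria food and the chimpanzee diet.

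Within labelled batch 1, fast food minus pellets called 0 of 17 (1.38% overall), with a median of -0.25 and 3 unadjusted p below 0.05. Cafeteria food minus pellets called 1 of 17 (8.13% overall), with a median of -0.23, and the chimpanzee diet minus pellets called 1 of 17 (2.72% overall), with a median of -0.27. The call was that of Gabra2 1421738_at in both, lower by 0.57 ± 0.12 on cafeteria food (adjusted p = 0.012) and by 0.53 ± 0.12 on the chimpanzee diet (adjusted p = 0.031). Positive differences numbered 1, 1 and 2 of 17, and the medians over all probe sets were -0.08, -0.15 and -0.13. As labelled, the relation of food to pellets did not hold across batches in these genes. When pellet mice had their batch labels swapped and both batches were fitted together, fast food minus pellets called 9 of 17 (16.1% of all probe sets). Cafeteria food minus pellets then called 0 (0% of all) and the chimpanzee diet minus pellets 0 (0.0636% of all).

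**Figure D2:**
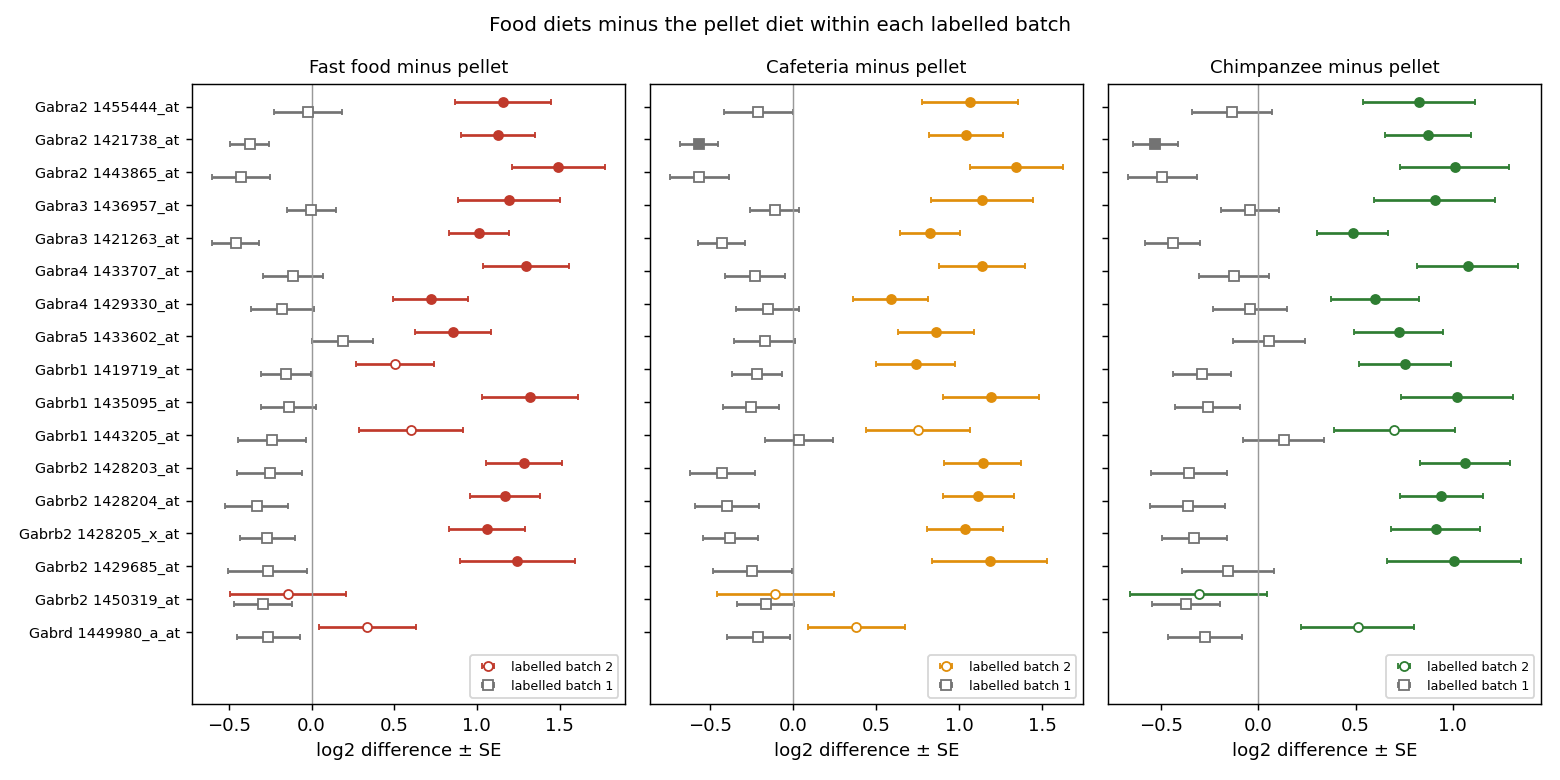
Difference in log2 level (horizontal axis) between each food diet and pellets for 17 probe sets, fitted within labelled batch 2 (coloured circles) and labelled batch 1 (grey squares), with bars of 1 SE; filled symbols had an adjusted p below 0.05. In all 3 panels 16 of 17 circles are above 0, and 1 or 2 of 17 squares are.

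Subunit levels did differ between the labelled batches, whose arrays also differed in spread. On the 9 non-pellet arrays labelled batch 2 against the 9 labelled batch 1, 12 of 17 probe sets were higher in batch 2 and 0 lower, covering Gabra2, Gabra3, Gabra4, Gabrb1 and Gabrb2. Over all probe sets 51.5% were called, 9332 higher and 2006 lower. The median difference was 0.47 for the subunits and 0.15 for all probe sets.

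Gabra2 had the widest batch difference. The lowest, median and highest levels of 1443865_at were 6.68, 7.10 and 7.54 in batch 2, against 5.83, 6.27 and 6.64 in batch 1, a difference of 0.91 ± 0.12 (SE, adjusted p = 2.4e-06). Those of 1421738_at were 7.07, 7.27 and 7.58 in batch 2, against 6.43, 6.65 and 6.88 in batch 1, a difference of 0.69 ± 0.07 (adjusted p = 1.2e-07). Neither pair of groups overlapped. The 1455444_at groups did overlap, at 7.17, 7.65 and 7.96 in batch 2 and 6.78, 7.09 and 7.66 in batch 1, a difference of 0.47 ± 0.11 (adjusted p = 0.0015).

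Gabra3 1421263_at had 4.98, 5.33 and 5.89 in batch 2, against 4.56, 4.73 and 4.95 in batch 1, with no overlap and a difference of 0.65 ± 0.10 (adjusted p = 1.2e-05). Its other probe set, 1436957_at, had 7.22, 7.70 and 7.77 in batch 2 and 7.04, 7.33 and 7.65 in batch 1, a difference of 0.26 ± 0.09 (adjusted p = 0.016). Gabra4 1433707_at had 8.56, 8.86 and 9.06 in batch 2, against 8.03, 8.27 and 8.75 in batch 1, a difference of 0.47 ± 0.09 (adjusted p = 0.00023). Both of the last 2 overlapped between batches.

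Gabrb2 1428203_at had 9.58, 9.86 and 10.03 in batch 2, against 8.78, 9.10 and 9.61 in batch 1, a difference of 0.67 ± 0.10 (adjusted p = 2.1e-05), and the other 4 Gabrb2 probe sets were higher by 0.53 to 0.66. Gabrb1 was called through 1435095_at alone, with 7.73, 7.81 and 8.25 in batch 2 and 7.24, 7.56 and 7.89 in batch 1, a difference of 0.35 ± 0.09 (adjusted p = 0.004). Gabra5 differed by 0.20 ± 0.10 (adjusted p = 0.10) and Gabrd by 0.16 ± 0.10 (adjusted p = 0.19), with 7.13, 7.30 and 7.69 for Gabrd in batch 2 and 6.81, 7.21 and 7.73 in batch 1. Gabra4, the partner of Gabrd outside the synapse, passed the test through 1433707_at but not through 1429330_at (0.18 ± 0.09, adjusted p = 0.11).

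Diet by diet, batch 2 was higher than batch 1 in 15 of 17 probe sets on fast food (median difference 0.54), 16 on cafeteria food (0.53) and 16 on the chimpanzee diet (0.33), but in 1 of 17 on pellets (-0.81). The 3 batch 2 arrays lay wholly below the 3 batch 1 arrays in 13 of 17 probe sets on pellets, a count not made over all probe sets. Of all probe sets, 70.3% were higher in batch 2 on the non-pellet diets fitted together. The share on pellets alone was not counted. Gabrb2 1428203_at had 8.07, 8.82 and 9.10 on pellet arrays labelled batch 2, against 9.50, 9.64 and 9.37 on those labelled batch 1. Gabra2 1443865_at had 5.15, 6.31 and 6.16 on pellet batch 2 arrays, against 6.72, 6.81 and 6.69 on pellet batch 1 arrays. Even without replicate 1, whose value is given first, the pellet batch 2 arrays were the lower ones in both.

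The batch difference on pellets minus that on the other diets, called the pellet difference here, was negative in all 17 probe sets, and 14 of 17 passed the test (69.1% of all probe sets, 12341 of them negative). The median was -1.22 for the subunits and -0.56 for all probe sets. Gabra2 1443865_at was at -1.78 ± 0.28 (adjusted p = 5.1e-05), Gabrb2 1428203_at at -1.51 ± 0.26 (9.6e-05) and Gabra2 1421738_at at -1.50 ± 0.21 (1.3e-05). Those not called were Gabrb1 1443205_at (-0.71 ± 0.33, adjusted p = 0.058), Gabrd (-0.66 ± 0.30, adjusted p = 0.057) and Gabrb2 1450319_at (-0.09 ± 0.34, adjusted p = 0.82). Without pellet batch 2 replicate 1, 12 of 17 were called (56.9% of all probe sets; median -0.86), and the calls of Gabra4 1429330_at (adjusted p = 0.072) and Gabra5 (adjusted p = 0.051) were lost, and Gabrd was at -0.23 (adjusted p = 0.38).

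**Figure D3:**
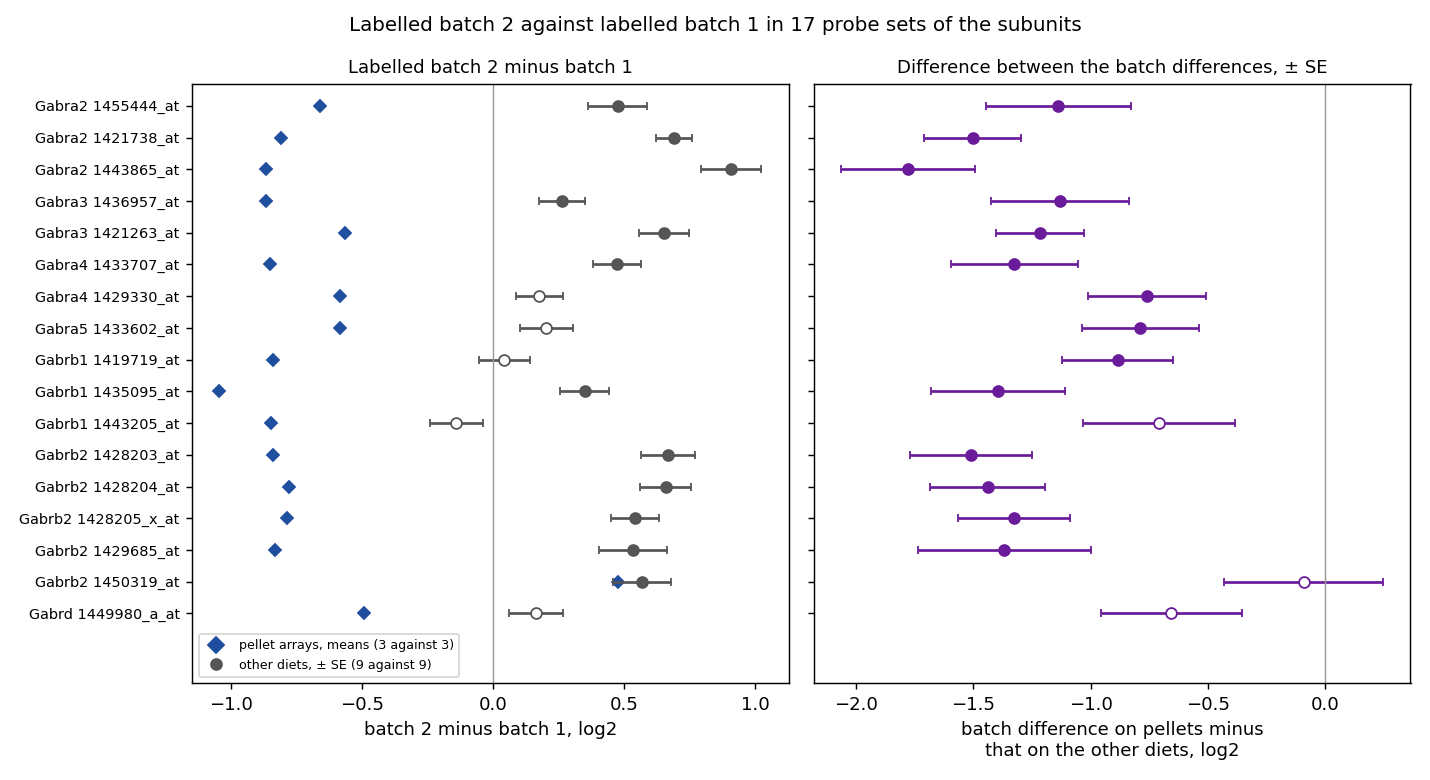
Left, labelled batch 2 minus batch 1 in log2 level (horizontal axis) for 17 probe sets: blue diamonds are differences of means on pellets (3 against 3 arrays), and grey circles are the fitted differences on the other diets with 1 SE (9 against 9 arrays). Right, the batch difference on pellets minus that on the other diets with 1 SE; filled circles had an adjusted p below 0.05, which 12 of 17 reached on the left and 14 of 17 on the right.

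Probe sets of 1 gene did not always move alike. An exact permutation test of the batch labels within diet on the 18 non-pellet arrays, added after the data were seen, compared 18 pairs of probe sets of the same gene (two-sided, 8000 arrangements, smallest possible p 0.00025, adjusted over the 18 pairs). The batch differences were unequal in 7 of 18 pairs. Of the 18, 10 were pairs of Gabrb2 probe sets, so the pairs were not independent. Probe set pairs of other genes were not tested, so the share over the array is not known. In Gabrb1, the batch difference of 1435095_at exceeded that of 1443205_at by 0.49 (adjusted p = 0.0015), and that of 1419719_at was 0.31 below that of 1435095_at (difference -0.31, adjusted p = 0.0165). The levels of 1443205_at were 5.88, 6.01 and 6.31 in batch 2 and 5.81, 6.11 and 6.88 in batch 1, and those of 1419719_at were 8.24, 8.43 and 8.98 in batch 2 and 8.21, 8.47 and 8.75 in batch 1. Gabrb1 as a gene therefore had no single batch result.

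In Gabra2, 1455444_at moved less than 1443865_at (-0.43, adjusted p = 0.0015), and in Gabra3, 1436957_at moved less than 1421263_at (-0.39, adjusted p = 0.0206). In Gabra4, 1433707_at moved more than 1429330_at (0.30, adjusted p = 0.0015). Within Gabrb2, 1428203_at and 1428204_at exceeded 1428205_x_at by 0.13 (adjusted p = 0.0146) and 0.12 (adjusted p = 0.0165). The other 11 pairs had adjusted p of 0.0693 or more. Which exons or transcript ends the probe sets lie on was not analysed here.

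Gabrb2 1450319_at stood apart from the other 4 probe sets of its gene, on pellets and in its correlation with them. It had 6.78, 5.04 and 6.04 on pellet arrays labelled batch 2, against 5.57, 5.41 and 5.44 on those labelled batch 1, and its highest level of the 24 was on pellet batch 2 replicate 1, where the other 4 were lowest. Its lowest level, 4.72, was on a non-pellet array, chimpanzee batch 1 replicate 1. Over the 24 arrays its Pearson's r with the other 4 was -0.21 to -0.04. With the mean of each diet and batch removed it was -0.60 to -0.53. The other 4 had r of 0.94 to 0.99 with one another. Its batch difference on the other diets, 0.57 ± 0.11 (adjusted p = 0.00026), was within the range of theirs.

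**Figure D4:**
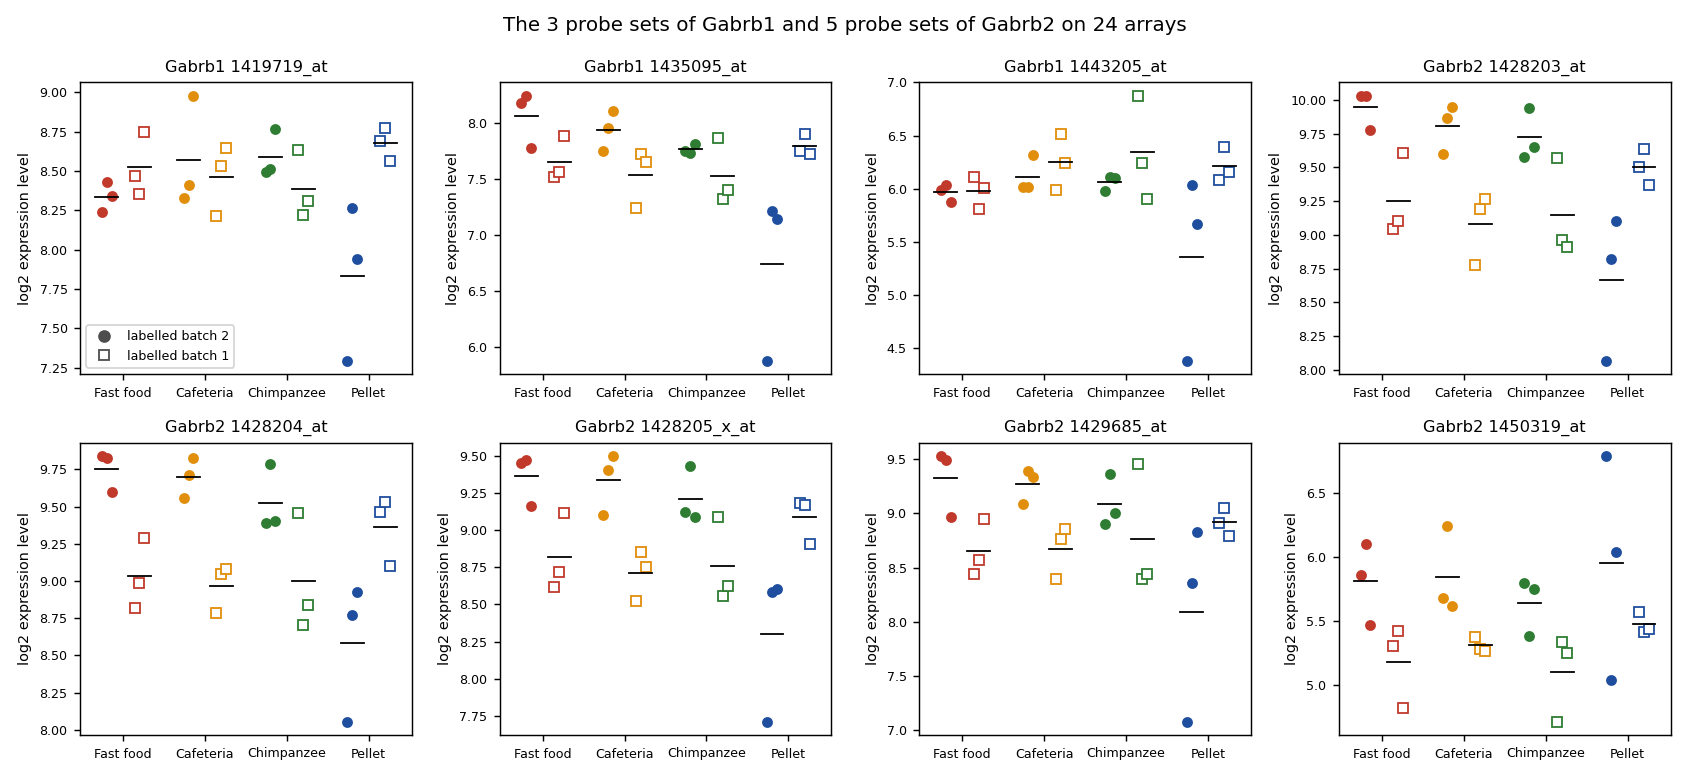
Log2 expression level (vertical axis) of the 3 tested probe sets of Gabrb1 and the 5 of Gabrb2 by diet (horizontal axis); filled circles are arrays labelled batch 2, open squares arrays labelled batch 1, and a line is the mean of 3 arrays. Of the 8 panels, Gabrb2 1450319_at alone has its highest level, 6.78, on pellet batch 2 replicate 1.

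The batch differences were then refitted with the SD of each array's levels as a covariate, an alternative added after the data were seen. Of 17 probe sets 5 were called: Gabra2 1421738_at (0.71 ± 0.11, adjusted p = 0.00024), Gabra2 1443865_at (0.56 ± 0.17, adjusted p = 0.034), Gabra3 1421263_at (0.66 ± 0.16, adjusted p = 0.008) and Gabrb2 1450319_at (0.88 ± 0.16, adjusted p = 0.0015) were higher in batch 2, and Gabrb1 1443205_at (-0.45 ± 0.15, adjusted p = 0.047) was lower. Over all probe sets 12.5% were called. The leading Gabrb2 probe set, 1428203_at, was at 0.19 ± 0.10 (adjusted p = 0.25). For the pellet difference in this fit, Gabra3 1421263_at (-1.13 ± 0.29, adjusted p = 0.031) and Gabra2 1421738_at (-1.12 ± 0.31, adjusted p = 0.042) were called, 2 of 17, against 4.43% overall. The SD is computed from the same arrays as the levels, and its part in the differences was not tested further.

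With the arrays quantile normalized to 1 distribution, 8 of 17 were higher in batch 2 and 2 lower (43.9% of all probe sets, 49.7% of those called being higher, against 82.3% as deposited). The median over all probe sets was then -0.01, against 0.15 as deposited, and that of the subunits 0.15. The 8 were the 3 Gabra2 probe sets, Gabra3 1421263_at and Gabrb2 1428203_at, 1428204_at, 1428205_x_at and 1450319_at. The 2 lower were Gabrb1 1419719_at (-0.29, adjusted p = 0.0054) and Gabrb1 1443205_at (-0.28, adjusted p = 0.016). For the pellet difference 8 of 17 were called, all negative (53.1% of all probe sets, 55.5% of those called being negative, against 81.2% as deposited), with a subunit median of -0.44 and an overall median of -0.10. Differences of the Gabrb2 probe sets 1428203_at, 1428204_at and 1428205_x_at were 0.25, 0.25 and 0.15 under this scaling, against 0.67, 0.66 and 0.54 as deposited, and that of Gabra2 1455444_at was 0.24, against 0.47. Gabra4 1433707_at, Gabra3 1436957_at, Gabrb1 1435095_at and Gabrb2 1429685_at were not called under it.

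**Figure D5:**
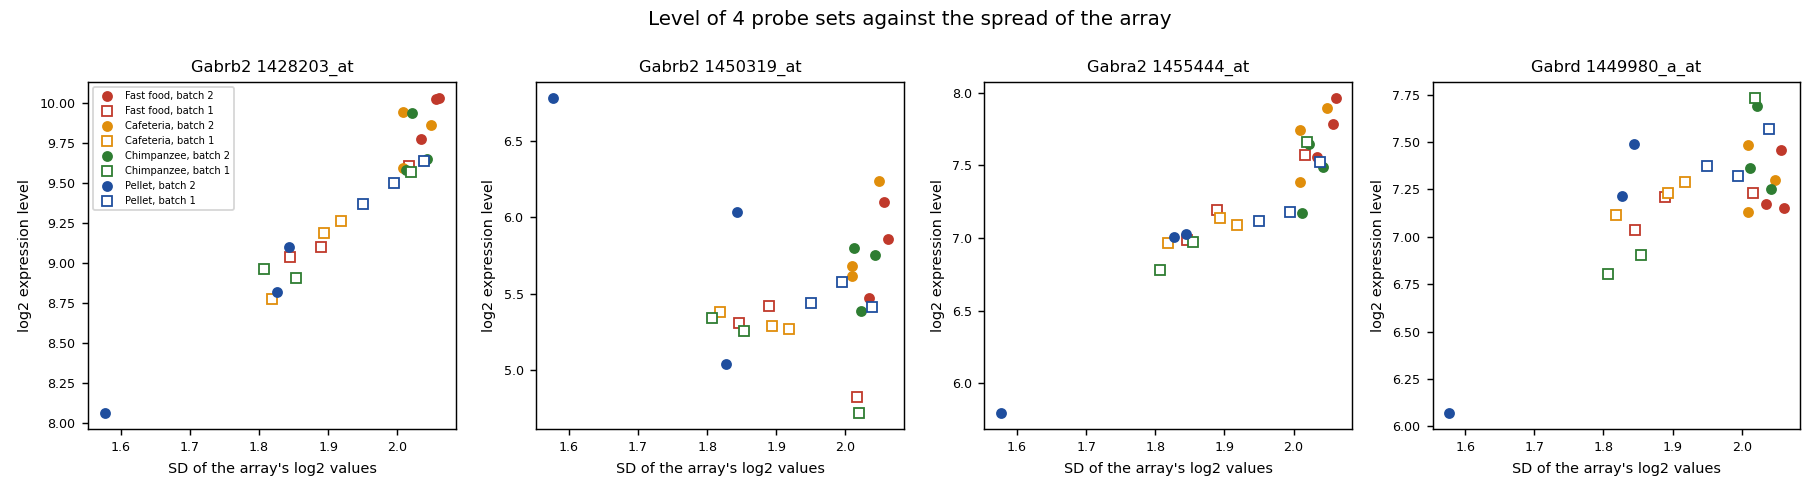
Log2 expression level (vertical axis) of Gabrb2 1428203_at and 1450319_at, Gabra2 1455444_at and Gabrd 1449980_a_at on the 24 arrays against the SD of each array's log2 levels (horizontal axis); colours are diets, filled circles batch 2 and open squares batch 1. The array at 1.58 is pellet batch 2 replicate 1, lowest in 3 panels and highest for Gabrb2 1450319_at at 6.78.

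The genes whose levels were most like those of each subunit were found by Pearson's r over the 24 arrays, 1 probe set a gene, over 11635 genes. These r describe arrays that share diet, batch and array spread, and no test was made. Gabrb2 was followed most closely by Eps15 (0.991), Hnrnpul2 (0.990) and Hnrnpa0 (0.989), Gabra4 by Cul3 (0.980), Bhlhb9 (0.978) and Pdp1 (0.978), Gabra2 by Mosmo (0.980), Fam120a (0.978) and 2510009E07Rik (0.978), and Gabra3 by Nkain2 (0.975), Phf10 (0.974) and Zbtb33 (0.974). For these 4 subunits the pattern was a common one, with 17.1%, 16.6%, 13.4% and 11% of genes above an r of 0.9. Gabra5 was followed by Lrrc28 (0.939), Lrrtm4 (0.929) and Rab40b (0.925), Gabrd by Rnf8 (0.912), Extl3 (0.90) and Shank3 (0.898), and Gabrb1 by Grid1 (0.904), Slc66a2 (0.894) and Tsr1 (0.890). Only 51, 2 and 1 genes passed 0.9 for Gabra5, Gabrd and Gabrb1. The Gabrb1 count holds for its probe set 1419719_at only. With the highest-mean probe sets of Gabrb2, Gabra4, Gabra2 and Gabra3, 1419719_at had r of 0.668 to 0.754. Gabrb1 1443205_at had 0.537 to 0.789 with them, but Gabrb1 1435095_at had 0.913 to 0.952. Genes above 0.9 were not counted for 1435095_at and 1443205_at.

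The rest of the GABA system was read from lists, 1 probe set a gene. No listed gene was called in any diet comparison fitted over both batches. The lists were not read in the comparisons within 1 batch. Of 12 other GABA-A subunit genes, 3 were tested and 0 called between batches; Gabrg1, a gamma subunit, had a pellet difference of -1.61 ± 0.39 (adjusted p = 0.0014). Of 7 tested genes for GABA synthesis, packaging, uptake and breakdown, 4 were higher in batch 2 (51.5% of all probe sets were called): Abat, which breaks GABA down (0.72), Gad1, which makes it (0.52), Aldh5a1 (0.39) and Slc32a1, the vesicular transporter (0.37). For the pellet difference 6 of 7 were negative and called (69.1% of all probe sets were called). Of 3 genes of the metabotropic GABA-B receptor, Gabbr1 was higher (0.51), and its pellet difference was -1.34. The receptor-associated genes Kctd16 (-0.74, adjusted p = 0.026) and Kctd8 (0.97, adjusted p = 0.0012) had pellet differences of opposite sign.

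Of 18 genes that anchor or move GABA-A receptors, 13 were called higher in batch 2 and 1, Shisa7, lower by 0.23 (51.5% of all probe sets were called). The higher ones were led by Nsf (0.71), which recycles receptors, Gphn, the gephyrin scaffold of inhibitory synapses (0.68), and Rdx, radixin, which anchors Gabra5 receptors (0.66). The pellet difference was negative and called in 14 of 18 and positive and called in 1, Shisa7 (0.37, adjusted p = 0.044; 69.1% of all probe sets were called), with Gphn at -2.16 ± 0.41 and Rdx at -2.07 ± 0.33. Among 7 genes of chloride and bicarbonate handling, which set the direction of GABA currents, 4 were higher, the carbonic anhydrase Car2 (0.80), the chloride importer Slc12a2 (0.74), Slc4a10 (0.66) and the chloride exporter Slc12a5 (0.59), and 1 lower, Car7 (-0.41). Car7 also had a positive pellet difference, 0.84.

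Markers in 5 lists of cell types were called in the same directions, at rates both above and below those of all probe sets. Between batches, 9 of 10 neuron markers were higher in batch 2 (median 0.61, led by Snap25 at 0.85), as were 6 of 8 astrocyte markers (median 0.63), 5 of 7 oligodendrocyte markers (0.47), 5 of 15 interneuron markers (0.16) and 2 of 7 microglia markers (0.11). None in these 5 lists was called lower. Of all probe sets 51.5% were called, with a median of 0.15. The pellet difference was negative and called in 10 of 10 neuron, 6 of 8 astrocyte, 6 of 7 oligodendrocyte, 9 of 15 interneuron and 5 of 7 microglia markers. Of all probe sets 69.1% were called for it, with a median of -0.56.

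Called higher and lower in batch 2 were 3 and 1 of 9 cortex, 2 and 0 of 6 hippocampus, 3 and 0 of 9 thalamus, 3 and 0 of 8 striatum, 1 and 1 of 6 cerebellum, 1 and 1 of 6 olfactory bulb, and 2 and 1 of 6 choroid plexus and ependyma markers. The 1 tested blood marker was not called, while 51.5% of all probe sets were. Called positive and negative for the pellet difference were 1 and 5 of 9 cortex, 0 and 3 of 6 hippocampus, and 0 and 5 of 9 thalamus markers. The counts were 0 and 6 of 8 striatum, 1 and 1 of 6 cerebellum, and 1 and 2 of 6 olfactory bulb markers. They were 1 and 2 of 6 for choroid plexus and ependyma, and 69.1% of all probe sets were called. The cerebellum median was 0.11. The part of these cell types and regions in the subunit differences was not tested. The tissue label fitted the data in that all 10 neuron markers were above the level filter.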

How the data were processed

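RNA from 24 right cerebral hemispheres was hybridized to 1 array each. The authors computed log2 expression levels by robust multichip average in the R package affy, described as including quantile normalization, and deposited them; the SD of the deposited log2 levels nevertheless ran from 1.58 to 2.06 between arrays. Genes were named from the platform annotation, with symbols updated through RefSeq. Probe sets with a mean level of at least 4.07, the median of the 45037 probe sets that are not controls, were tested: 21996 in all. limma 3.58.1 (lmFit and eBayes, R 4.3.3) was fitted to all 24 arrays with diet and labelled batch as terms. Batch 2 minus batch 1 was fitted on the 18 non-pellet arrays, and the pellet difference with an interaction term. P-values were adjusted by Benjamini-Hochberg over all probe sets tested. The procedure was tested on simulated data. The methods' two-way test of diet and batch was run beside it. The authors' detection p-values and their exclusion of 1 pellet brain were not applied here.

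All member probe sets are reported. The probe set of highest mean stands for a gene, listed genes are named from the 5 largest called differences of a list and comparison, not all of which are named, and the 3 most correlated genes are named for each subunit. Shisa7, outside this rule, was named after its values were seen. Members, lists and tests were chosen with earlier results of these data known. Alternatives covered scaling, level filter, array weights, 1 probe set a gene, batch terms, single batches, exchanged pellet batch labels, a replicate block and each array left out. Promoter windows are RefSeq's, build GRCm38.p6. Figures were drawn with matplotlib 3.10.9 under Python 3.11.15.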

Additional observations from a re-analysis of the deposited data

Results flagged for a closer look

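Each of the 17 tested probe sets was examined in groups of arrays: the 6 of each diet and the 9 of each batch on the non-pellet diets. These groups share arrays and are not independent. A single array stood far from the others in 9 of 102 groups, all of them diet groups, where chance gives about 5% of groups. In 7 of the 9 it was pellet batch 2 replicate 1, the lowest pellet array: Gabra4 1429330_at at 5.996 (next array 6.95), Gabrb2 1429685_at at 7.08 (8.35), Gabrb1 1435095_at at 5.88 (7.15), Gabra3 1436957_at at 5.58 (6.84), Gabrb1 1443205_at at 4.38 (5.67), Gabrd at 6.07 (7.22) and Gabra2 1455444_at at 5.80 (7.01). The same array had the lowest SD of its log2 levels, 1.58, whose part in these values was not tested. The other 2 were cafeteria batch 1 replicate 1, lowest for Gabra4 1429330_at at 6.75 (next 7.19), and chimpanzee batch 1 replicate 1, highest for Gabrb1 1443205_at at 6.88 (next 6.25).

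The difference between batch 2 and batch 1 was not the same on pellets as on the other diets in 14 of 17 probe sets, by limma's interaction term with Benjamini-Hochberg adjustment; 69.1% of all probe sets were called. For the alpha subunits, the batch difference on pellets minus that on the other diets was -1.78 for Gabra2 1443865_at (adjusted p = 5.1e-05), -1.50 for Gabra2 1421738_at (1.3e-05), -1.14 for Gabra2 1455444_at (0.0032), -1.22 for Gabra3 1421263_at (3.8e-05), -1.13 for Gabra3 1436957_at (0.0024), -1.33 for Gabra4 1433707_at (0.00039), -0.76 for Gabra4 1429330_at (0.012) and -0.79 for Gabra5 (0.0089). For the beta subunits it was -1.40 for Gabrb1 1435095_at (4e-04), -0.88 for Gabrb1 1419719_at (0.0029), -1.51 for Gabrb2 1428203_at (9.6e-05), -1.44 for 1428204_at (8.6e-05), -1.33 for 1428205_x_at (0.00014) and -1.37 for 1429685_at (0.003).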

How the results depend on the processing

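The diet comparisons over both batches called 0 of 17 subunit probe sets under every alternative run except those named next. Labelled batch 1 alone gave 1 for the 4 diets, 1 for the chimpanzee diet minus pellets and 1 for cafeteria food minus pellets; batch 2 alone gave 12, 14 and 14 for the same comparisons and 13 for fast food minus pellets. Over both batches, exchanging the pellet batch labels gave 9 for fast food minus pellets, against 0 as labelled. For batch 2 minus batch 1 (12 of 17), 1 probe set a gene gave 4 of 7 and the SD covariate 5. For the pellet difference (14 of 17, and 69.1% of all probe sets), 1 probe set a gene gave 6 of 7, quantile normalization 8 and the SD covariate 2. Exchanged pellet labels gave 0 by limma, with 4 members at an unadjusted p below 0.05. They also gave 0% of all probe sets, so this loss was not particular to the subunits. Shares of all probe sets for the 4 diets within 1 batch and for 1 probe set a gene are not given here. Leaving out 1 array gave 12 to 15 calls for the batches, 12 to 16 for the pellet difference (12 without pellet batch 2 replicate 1) and 0 to 0 for the diets. A replicate block gave 12 and 14 calls and 0 for the diets and changed no call; the numbers do not pair the mice (36 pairs, median r -0.03, 12 above 0.1).

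Signs turned in 24 refits of called members, and 22 others fell short of the threshold. Exchanging the pellet labels accounted for 12 of the turns. It reverses the batch difference on pellets by construction, so these turns follow from the values as labelled. Quantile normalization turned the pellet difference of Gabrb1 1419719_at (0.0155). Exchanged labels turned that of Gabrb1 1419719_at (0.80) and 1435095_at (0.70), Gabra2 1421738_at (0.12) and 1455444_at (0.19), Gabrb2 1428203_at (0.18), 1428204_at (0.12), 1428205_x_at (0.25) and 1429685_at (0.30), Gabra4 1429330_at (0.41) and 1433707_at (0.38), Gabra5 1433602_at (0.38) and Gabra3 1436957_at (0.60). The SD covariate turned the batch difference of Gabrb2 1429685_at (-0.0888), Gabrb1 1435095_at (-0.0391) and Gabra2 1455444_at (-0.0492), and the pellet difference of Gabrb1 1419719_at (0.0885) and 1435095_at (0.0572), Gabra4 1429330_at (0.48) and 1433707_at (0.0023), Gabrb2 1429685_at (0.59), Gabra5 1433602_at (0.27), Gabra3 1436957_at (0.21) and Gabra2 1455444_at (0.49). The cause of the turns under quantile normalization and the SD covariate was not tested. Precision is limited by 3 arrays per diet and batch.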
